A study of Homo sapiens with 2 samples.

Results

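The genes that build and control the mitotic spindle were examined by RNA sequencing in a pair of libraries, of which 1 came from bort-treated THP1 cells (24 h) and 1 from cells left untreated. Both came from THP1, a human leukaemia line with the MLL-AF9 fusion that is labelled as monocytic, and bort (bortezomib) blocks the proteasome. The concentration used for the sequenced cells was not given in the sources used here. The members were all genes of the deposited table whose symbol starts with KIF and a digit or KIFC, or consists of CENP and letters, together with 20 mitotic cyclins, kinases, checkpoint and spindle genes named one by one. This rule found 72 of the 10987 genes in the table, 31 of them with a KIF symbol, 21 with a CENP symbol and 20 named singly. KIF1BP, which the rule takes in by its symbol, encodes a protein that binds kinesins and is not itself a kinesin. With 1 library per condition there was no replicate, so no difference below has a test, and each compares 2 libraries rather than 2 conditions.

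Before a cell divides, cyclin-dependent kinase CDK1 is switched on by cyclins A and B, and the chromosomes condense and attach to microtubules of the spindle. The attachment is made at the kinetochore, a stack of protein complexes that CENP proteins build on the centromere. Kinesins are motors that walk along microtubules or take them apart, some within the spindle and others in transport through the cytoplasm. The spindle assembly checkpoint holds the anaphase promoting complex in check until all kinetochores are attached, after which the proteasome destroys cyclin B and cell division is completed. Transcripts of most of these genes accumulate in G2 and mitosis of dividing cells. In a bulk sample, fewer cells in those phases and less RNA per cell cannot be told apart.

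Values are FPKM, the number of sequenced fragments corrected for transcript length and library size, so that genes of unequal length can be compared within a library. The difference between the libraries is given as log2(FPKM + 1) of the bort-treated minus the untreated library, a scale on which differences of weakly expressed genes come out too small. The number of reads behind each value is unknown, so no counting error or detection limit can be given. Over all genes the median FPKM was 5.85 in the untreated and 6.02 in the bort-treated library. Both libraries went against the monocytic label. The 12 erythroid marker genes examined summed to 4070 FPKM in the untreated and 3585 FPKM in the bort-treated library. Values were given for 5 of 12 markers of monocytes and myeloid cells, LYZ the highest, and they summed to 18.8 and 44.1 FPKM, while CD14, CSF1R and MPO had none among the genes analysed. The erythroid markers KLF1 and GATA1 were lower by more than 2-fold in the bort-treated library. The part of these lineage markers in the results below was not tested, and the libraries are named here by their labels.

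The spindle and kinetochore genes as a whole differed little between the libraries, with members far apart on either side. Of the 72 members 46 had a higher FPKM in the bort-treated library and 26 a lower one, 63.9% higher against 50.3% of all genes. Their median log2 difference was 0.19, against 0.0049 over all genes of the table. By 2-fold or more, 7 members were higher (9.72%, against 8.08% of all genes) and 5 were lower (6.94%, against 10.2% of all genes), so both shares lay near those of the table. The 7 higher genes were NUSAP1, KIF24, KIF1B, CENPQ, KIF21A, TTK and KIF18A. The 5 lower genes were CENPB, KIF1C, CENPV, CENPM and KIFC2. The summed FPKM of the members was 0.703% of the total in the untreated and 0.679% in the bort-treated library. None of the 72 members lay below 1 FPKM in either library, and the lowest value was that of KIF24 in the untreated library at 1.12 FPKM. The order of the members by FPKM was much alike in the libraries, with a Spearman correlation of 0.86 over 72 genes that share the same pair of libraries.

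**Figure D1:**
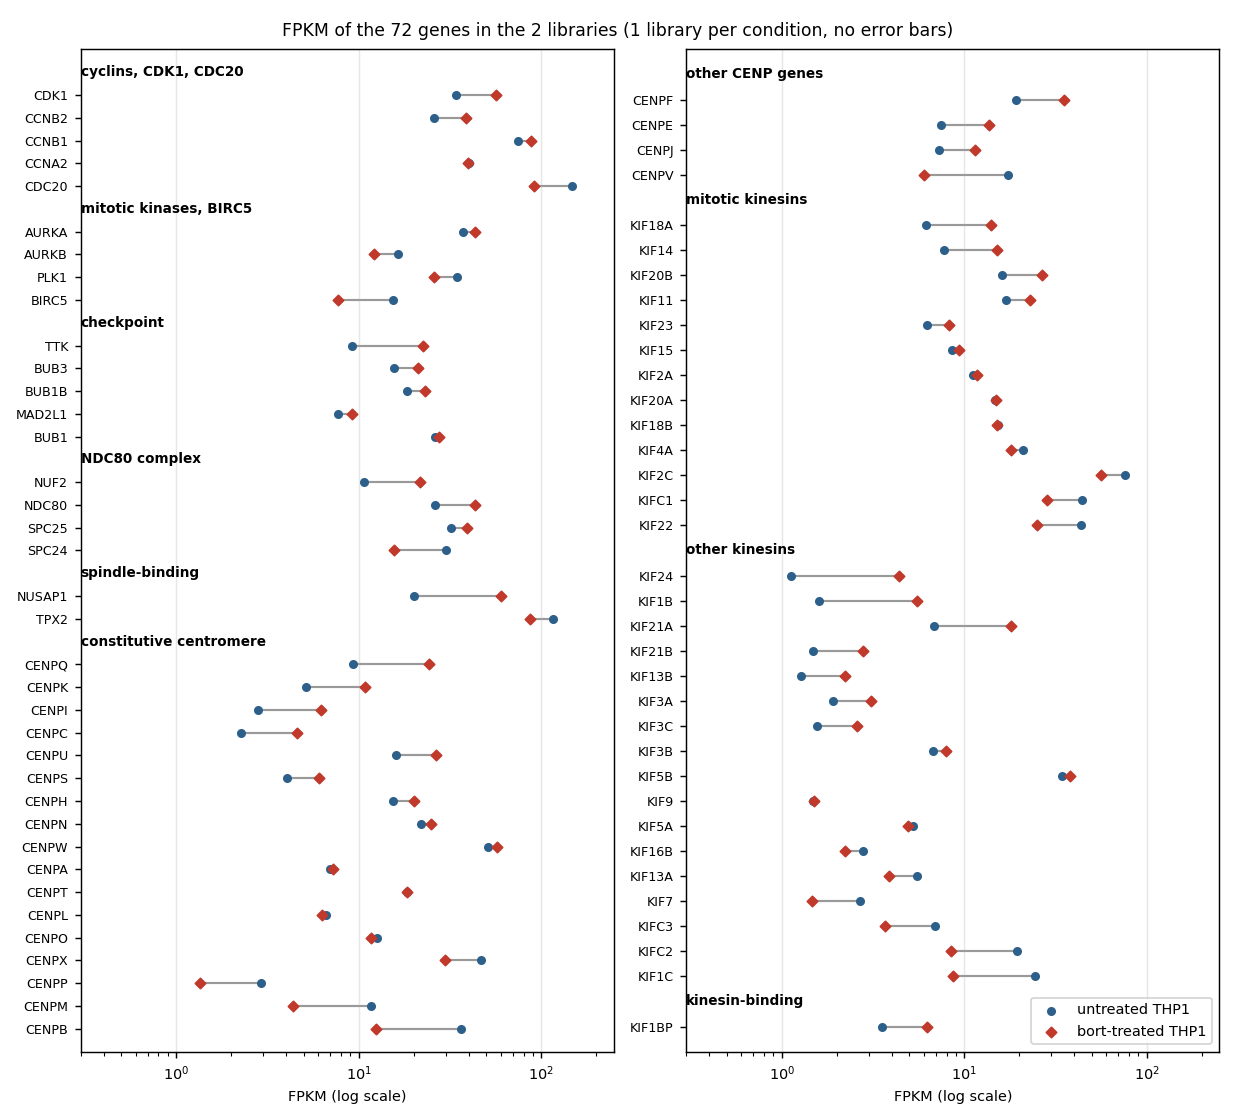
FPKM of each member on a log axis in the untreated library (circles) and the bort-treated library (diamonds), by role and sorted by the log2 difference, with 1 library per condition and no error bars. CDC20 is the highest point of the untreated library at 148.2 FPKM, and NUSAP1, TTK and CENPQ show wide gaps towards the bort-treated library while CENPB and KIF1C show wide gaps the other way.

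The differences of the members followed the GC content of their transcripts. The median GC content was 46.0% for the members and 49.5% for all genes of the table. Of the 46 members below 49.5% GC, 40 were higher in the bort-treated library, and of the 26 above it 6 were higher. Over all genes, 69.2% below that value and 31.5% above it were higher. All 5 members lower by 2-fold or more lay above the median GC content, and 6 of the 7 that were higher by 2-fold lay below it. The whole table had a like pattern. Of all genes lower by 2-fold, 985 lay above that median and 120 below it. Of all genes higher by 2-fold, 665 lay below it and 219 above. The Spearman correlation of log2 difference with GC content was -0.74 over the 72 members and -0.49 over 10907 genes, all from the same pair of libraries. Once the trend fitted over all genes was removed, the median of the members was 0.032 against 0.013 for all genes, and 39 of 72 were higher (all genes, 50.9%). By that measure 4 members were higher by 2-fold (all genes, 7.12%) and 2 were lower (all genes, 6.06%), NUSAP1, KIF1B, KIF24 and KIF21B on 1 side and CENPV and KIF1C on the other. The removal was incomplete for the members, whose differences still had a Spearman correlation of -0.30 with GC content (-0.41 for the mitotic kinesins and -0.56 for the constitutive centromere genes). The sign of 15 members changed with the removal (KIF2A, KIF3A, KIF5A, KIF5B, KIF7, KIF11, KIF15, KIF18B, KIF20B, SPC25, CENPH, CENPO, CENPW, MAD2L1 and BUB1). Whether the trend comes from the libraries or the cells was not tested.

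**Figure D2:**
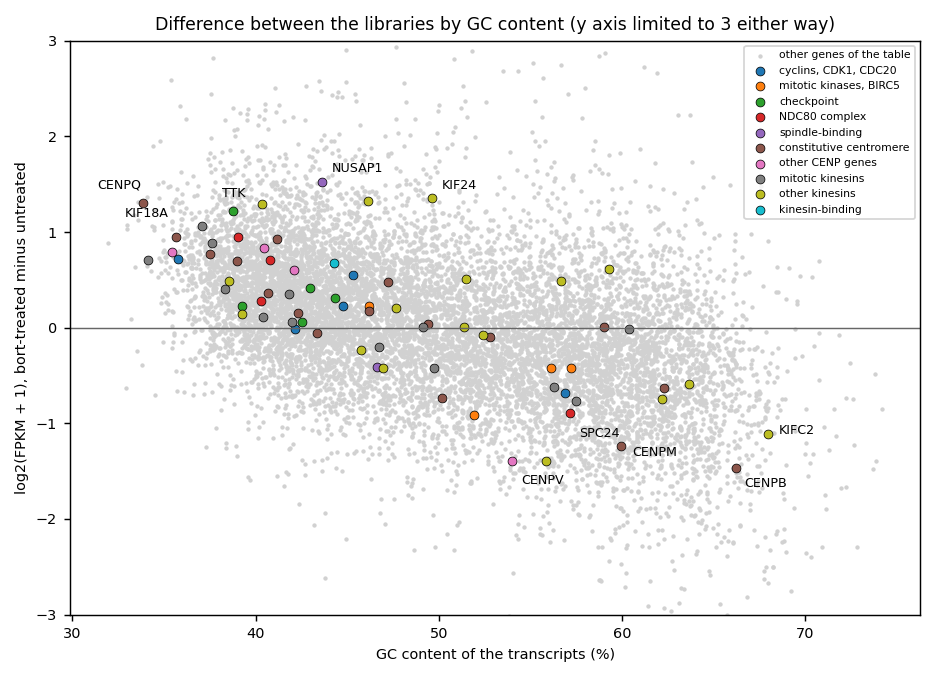
Log2 difference between the libraries (y axis) against GC content of the transcripts in percent (x axis), members coloured by role and other genes in grey, with the y axis limited to 3 either way. Members of low GC content such as CENPQ lie mostly above 0 and those of high GC content such as CENPB and KIFC2 below it, along the slope of the grey points.

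Promoters of the members were searched for a pair of short sequence elements that the rule had not used. The cell cycle genes homology region (CHR), an element at which the DREAM and MYBL2-MuvB complexes are known to act on genes of G2 and mitosis, was searched as TTTGAA or TTCGAA on both strands. The CCAAT box, bound by NF-Y, was searched likewise, and the motifs do not overlap in their letters. The windows were those of RefSeq on GRCh38.p14, 250 bases before to 50 bases after each gene's start, and 57 of the 72 members had one. Of these, 29 held a CHR match (50.9%), against 14.8% of the 8544 genes of the table with a window and 16.4% of all 35116 windows. A CCAAT match was held by 36 members (63.2%), against 43.7% of the genes of the table, and both by 24 (42.1%), against 6.38%. Among the roles, 10 of 13 mitotic kinesins had a CHR match but 2 of 12 other kinesins. Of 36 genes for replication licensing and the replication fork, which are expressed earlier in the cycle, 2 had one (5.56%), while 22 of them had a CCAAT match (61.1%). Lists nearer to the members in function lay on both sides of the members' share. The share was higher for condensin (6 of 7), entry kinases and phosphatases (9 of 15) and other kinetochore and checkpoint genes (13 of 23). It was lower for cytokinesis (5 of 11), regulators of transcription in G2 and mitosis (8 of 21) and cohesin and separase (4 of 13). It was also lower for the spindle pole and augmin (7 of 25) and the anaphase promoting complex (5 of 18). No enrichment was tested, and 28 of the 57 members had no CHR match. A match is a description of the letters and not a bound site.

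**Figure D3:**
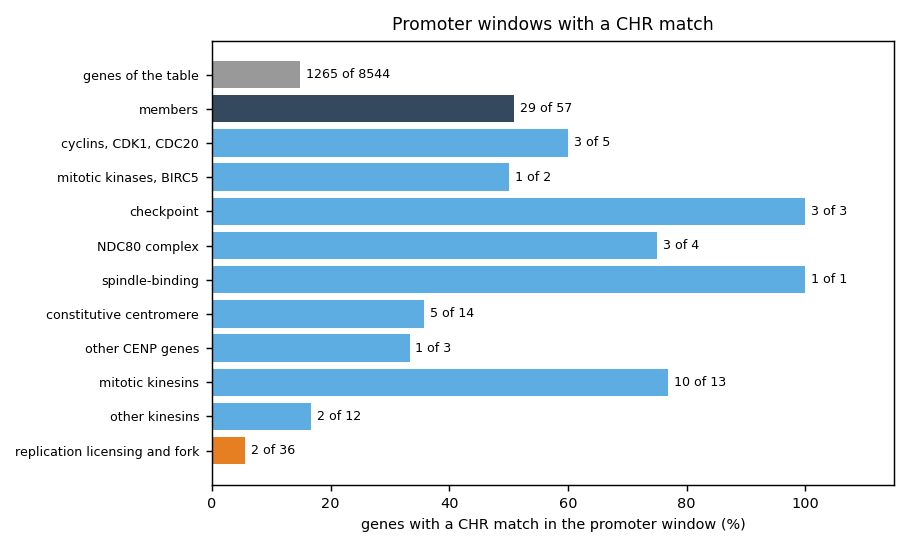
Share of genes with a CHR match in the promoter window (bars, percent, with the counts beside them) for the genes of the table, the members, each role and the replication genes. The bar of the members is at 50.9%, that of the table at 14.8% and that of the replication genes at 5.56%.

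In 8 members both motifs lay whole within 120 bases before the start, with the CHR nearest the gene. The windows of KIF11 and KIF4A, motors of the spindle and of chromosome arms, are shown whole because little or none of them lies in a transcript of the gene. Counted from first base to first base, their CHR stands 25 and 24 bases downstream of the CCAAT box. KIF11 had a log2 difference of 0.40 and KIF4A of -0.20, but with the GC trend removed both were below 0, at -0.12 and -0.30. Capitals mark the CHR match and the CCAAT box, either of which may be read on the opposite strand.
KIF11, chr10:92593010-92593129, plus strand: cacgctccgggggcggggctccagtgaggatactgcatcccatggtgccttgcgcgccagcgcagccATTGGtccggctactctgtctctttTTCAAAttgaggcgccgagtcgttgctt
KIF4A, chrX:70289984-70290103, plus strand: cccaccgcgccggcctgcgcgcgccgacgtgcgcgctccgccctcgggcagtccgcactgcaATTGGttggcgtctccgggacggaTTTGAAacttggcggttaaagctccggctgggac

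For the other 6 members with that arrangement, and for NUSAP1 as the member with the largest positive difference, the 30 bases around the CHR are shown with its letters in capitals. They are ordered by log2 difference from the highest to the lowest. The site of NUSAP1 lies after the start of the gene and the others before it, and the site of KIF22 is of the TTCGAA form of the motif while the others are of the TTTGAA form.
NUSAP1, chr15:41332882-41332911, plus strand: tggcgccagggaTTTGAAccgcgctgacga
KIF18A, chr11:28108149-28108178, minus strand: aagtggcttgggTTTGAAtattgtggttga
CDK1, chr10:60778453-60778482, plus strand: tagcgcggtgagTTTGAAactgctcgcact
CCNB2, chr15:59105105-59105134, plus strand: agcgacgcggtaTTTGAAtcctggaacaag
KIF23, chr15:69414282-69414311, plus strand: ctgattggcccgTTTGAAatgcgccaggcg
PLK1, chr16:23678848-23678877, plus strand: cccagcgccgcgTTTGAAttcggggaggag
KIF22, chr16:29790712-29790741, plus strand: ggcaccggggaaTTCGAAtgggagaggcgg

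Members with a CHR match and members without did not part cleanly by their difference between the libraries. The 29 with a match had log2 differences from -0.77 (KIF22) to 1.53 (NUSAP1), with a median of 0.28 and 22 of them higher. The 28 without a match ranged from -1.47 (CENPB) to 1.32 (KIF1B), with a median of 0.0093 and 16 higher. With the GC trend removed the medians were 0.051 and 0.018. Of the members higher by 2-fold, 3 had a match and 3 had none, and TTK had no window. Of those lower by 2-fold, 0 had a match and 3 had none, and CENPM and KIFC2 had no window. Among the genes of the table with a match, 719 of 1265 were higher by any amount, and 94 were lower by 2-fold. Among those without a match, 3615 of 7279 were higher by any amount, and 725 were lower by 2-fold. Of all genes, 8.08% were higher by 2-fold and 10.2% were lower by 2-fold.

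CDK1 and both B-type cyclins were higher in the bort-treated library, CCNA2 was near level and CDC20 was lower. CDK1, the kinase that drives entry into mitosis, was at 34.0 FPKM in the untreated and 56.7 FPKM in the bort-treated library, a log2 difference of 0.72. CCNB1, its main mitotic cyclin, was at 74.9 and 88.0 FPKM, and CCNB2, a second B-type cyclin, at 25.9 and 38.5 FPKM. CCNA2, the cyclin of S phase and G2, was near level at 40.3 and 39.9 FPKM. CDC20, which activates the anaphase promoting complex at the end of metaphase, was the most abundant member of the untreated library at 148.2 FPKM and stood at 91.7 FPKM in the bort-treated library, a log2 difference of -0.69. None of the 5 passed 2-fold. CDK1 transcripts are poor in GC (35.8%) and its difference was 0.067 with the GC trend removed, whereas that of CCNB2 was 0.39, that of CCNB1 0.036 and that of CCNA2 -0.34.

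Of AURKA, AURKB, PLK1 and BIRC5, 1 was higher and 3 were lower. AURKA, a kinase of the spindle poles, was higher, at 37.1 FPKM in the untreated and 43.5 FPKM in the bort-treated library. PLK1, a kinase of centrosomes and kinetochores, was at 34.7 and 25.7 FPKM. AURKB, the kinase of the chromosomal passenger complex, was at 16.5 and 12.1 FPKM. BIRC5 (survivin), which brings that complex to the centromere and also inhibits cell death, was at 15.4 and 7.74 FPKM, a log2 difference of -0.91. Both passenger genes of the rule were thus lower, BIRC5 by more than AURKB, and without the GC trend BIRC5 was at -0.77 and AURKB at -0.12. TPX2, which binds and activates AURKA on spindle microtubules, was among the most abundant members at 115.8 and 86.7 FPKM.

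NUSAP1, a protein that binds and bundles microtubules around chromosomes, had the largest positive difference of the members. It was at 20.1 FPKM in the untreated and 59.9 FPKM in the bort-treated library, a log2 difference of 1.53, and 97.8% of the genes in the table had a lower difference. It stayed past 2-fold with the GC trend removed, at 1.28. NUSAP1 shares exon sequence on its strand with AC087721.2 in GENCODE 29, so fragments could have been assigned to either gene.

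All 5 checkpoint genes were higher in the bort-treated library, 1 of them by 2-fold. TTK (MPS1), the kinase that starts checkpoint signalling at free kinetochores, was at 9.16 FPKM in the untreated and 22.6 FPKM in the bort-treated library, a log2 difference of 1.22. BUB3 and BUB1B, which form part of the inhibitor of the anaphase promoting complex, were at 15.7 and 21.2 FPKM and at 18.3 and 22.9 FPKM. MAD2L1 (MAD2), another part of that inhibitor, was at 7.68 and 9.14 FPKM. BUB1, which recruits the others to kinetochores, was near level at 26.2 and 27.4 FPKM. These genes have GC-poor transcripts, and with the GC trend removed 3 of the 5 were higher, MAD2L1 stood at -0.25, BUB1 at -0.24 and TTK at 0.72, short of 2-fold.

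The 4 subunits of the NDC80 complex, which holds the microtubule at the outer kinetochore in equal numbers of each subunit, did not differ in the same direction. NUF2 was at 10.7 FPKM in the untreated and 21.5 FPKM in the bort-treated library, and its partner NDC80 at 26.1 and 43.3 FPKM. SPC25 was at 32.1 and 39.1 FPKM. SPC24, which pairs with SPC25 at the inner end of the complex, was lower, at 29.96 and 15.7 FPKM. The log2 differences ran from -0.89 for SPC24 to 0.95 for NUF2. NUF2 was the least abundant of the 4 in the untreated library and SPC24 the least abundant in the bort-treated one. The span of 1.84 between them was 1.03 with the GC trend removed, when SPC25 stood at -0.15. SPC24 has transcripts of 57.2% GC and the others between 39.1% and 40.8%.

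The inner kinetochore is built on CENPA, the histone H3 variant that marks the centromere, which was level at 6.97 FPKM in the untreated and 7.196 FPKM in the bort-treated library. CENPC, which binds CENPA nucleosomes and reaches outwards, was at 2.27 and 4.58 FPKM, a log2 difference of 0.77. CENPB, which binds a short motif in centromeric alpha-satellite DNA, was the member with the largest negative difference, at 36.3 and 12.5 FPKM, a log2 difference of -1.47. CENPB transcripts have a GC content of 66.2%, and the difference was -0.73 with the GC trend removed, short of 2-fold. Of the 17 genes of the constitutive centromere in the table, 11 were higher and 6 lower, with a median log2 difference of 0.15.

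Within the complexes of the inner kinetochore 1 subunit often stood against the rest. Of the CENP-H-I-K-M complex, CENPK was at 5.16 FPKM in the untreated and 10.8 FPKM in the bort-treated library. CENPI was at 2.80 and 6.202 FPKM and CENPH at 15.4 and 20.2 FPKM. CENPM was lower, at 11.7 and 4.37 FPKM, a log2 difference of -1.24 that was -0.82 with the GC trend removed. The span of the 4 was 2.18 on the log2 scale, and 1.37 without the trend.

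In the CENP-O-P-Q-U complex CENPQ was at 9.27 FPKM in the untreated and 24.3 FPKM in the bort-treated library, a log2 difference of 1.30. CENPU was also higher, at 15.9 and 26.4 FPKM, while CENPO was near level at 12.6 and 11.7 FPKM. CENPP was lower, at 2.91 and 1.35 FPKM. The highest of the 4 was thus 5.46 times the lowest in the untreated library and 19.6 times in the bort-treated one. CENPQ has the lowest GC content of the members, 33.9%, and was at 0.55 without the GC trend.

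The CENP-T-W-S-X complex, which has a histone-like fold, had a smaller span of log2 differences than CENP-H-I-K-M and CENP-O-P-Q-U, at 1.11. Its levels were not more even, the highest being 12.6 times the lowest in the untreated library and 9.40 times in the bort-treated one. CENPW was at 51.1 FPKM in the untreated and 57.0 FPKM in the bort-treated library, and CENPT at 18.5 in both. CENPX was lower, at 46.8 and 29.9 FPKM, and CENPS was at 4.06 and 6.06 FPKM. Values of CENPS are uncertain because the readthrough gene CENPS-CORT shares its exons. CENPN and CENPL, which form a pair on the CENPA nucleosome, were near level, CENPN at 21.8 and 24.8 FPKM and CENPL at 6.59 and 6.32 FPKM.

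Of the CENP genes outside that network, the outer kinetochore proteins were higher. CENPE, a kinesin motor that carries chromosomes towards the equator of the spindle, was at 7.48 FPKM in the untreated and 13.6 FPKM in the bort-treated library. CENPF, a large protein of the outer kinetochore, was at 19.3 and 35.2 FPKM, a log2 difference of 0.84. With the GC trend removed CENPE was at 0.12 and CENPF at 0.42. CENPJ, which sets the length of centrioles, was at 7.25 and 11.5 FPKM. CENPV, a protein needed for centromere and midzone organisation, was lower, at 17.4 and 6.03 FPKM, a log2 difference of -1.39. CENPV stayed past 2-fold with the GC trend removed, at -1.17.

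The 13 kinesins of mitosis were split, 8 higher and 5 lower, with a median log2 difference of 0.059. KIF18A, which shortens and steadies kinetochore microtubules, was at 6.19 FPKM in the untreated and 13.99 FPKM in the bort-treated library, a log2 difference of 1.06. KIF14, which acts in cytokinesis, was at 7.80 and 15.2 FPKM, and KIF20B, also of cytokinesis, at 16.1 and 26.8 FPKM. These were the 3 largest differences on the higher side, but with the GC trend removed KIF20B was at -0.029 and KIF14 at 0.32, below KIF18B at 0.41.

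KIF11 (Eg5), the motor that pushes the spindle poles apart, was at 17.0 FPKM in the untreated and 22.8 FPKM in the bort-treated library. KIF15, which can stand in for KIF11, was at 8.56 and 9.34 FPKM, and KIF23, a motor of the central spindle, at 6.26 and 8.25 FPKM. KIF20A and KIF18B were level, KIF20A at 14.8 and 14.9 FPKM and KIF18B at 15.3 and 15.1 FPKM. KIF2A, which takes microtubules apart at the poles, was also near level at 11.2 and 11.7 FPKM.

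The 5 lower mitotic kinesins were KIF18B, near level, and the 4 most abundant ones of the untreated library. KIF2C (MCAK), which removes wrongly attached microtubules, was at 76.1 FPKM there and 56.3 FPKM in the bort-treated library. KIFC1, a minus-end motor that clusters spindle poles, was at 44.2 and 28.3 FPKM. KIF22, which pushes chromosome arms, was at 43.6 and 25.2 FPKM, a log2 difference of -0.77. KIF4A, another motor of chromosome arms, was at 21.0 and 18.1 FPKM, and its value is uncertain because the intronless copy KIF4B is nearly identical. Over the 13 genes the log2 difference had a Spearman correlation of -0.77 with the FPKM of the untreated library and -0.91 with GC content. Both are of this pair of libraries, and over 10907 genes they were -0.36 and -0.49. The untreated value is itself subtracted in the difference, which pulls the correlation with untreated FPKM below 0, so no conclusion is drawn from it. With the GC trend removed the median was -0.12, 5 of 13 were higher and KIF18A was at 0.47, short of 2-fold.

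**Figure D4:**
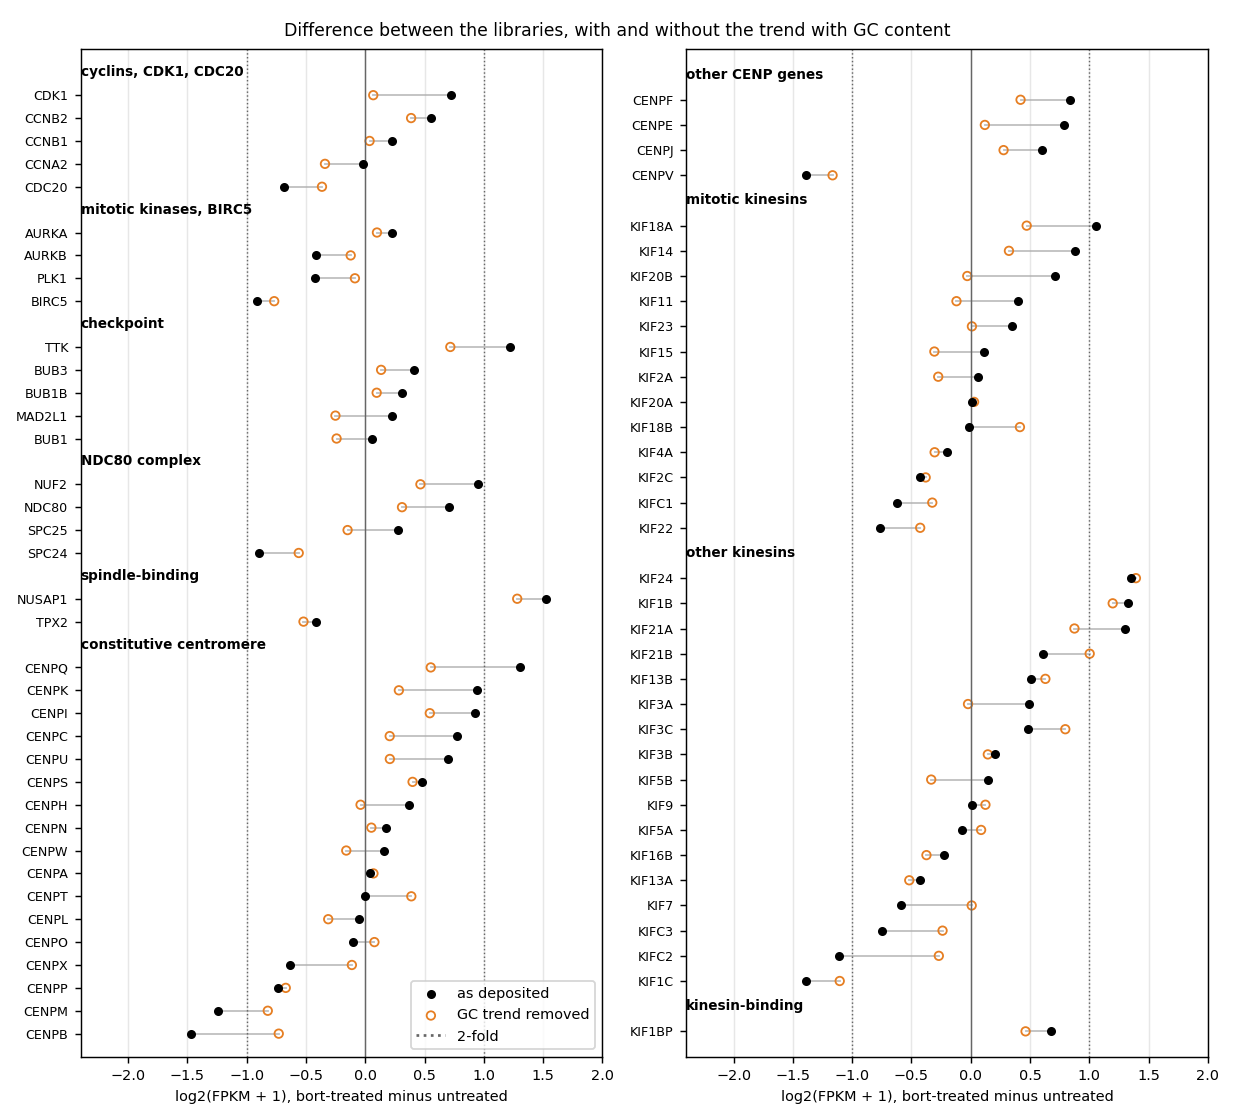
Log2 difference (bort-treated minus untreated, on FPKM + 1) of each member as deposited (filled) and with the GC trend removed (open), by role, with dotted lines at 2-fold. NUSAP1, KIF24, KIF1B, CENPV and KIF1C stay outside the dotted lines by both measures, while CENPQ, TTK, KIF18A, KIF21A, CENPB, CENPM and KIFC2 move inside once the trend is removed.

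The 17 other kinesins, which carry cargo or act in cilia and signalling, were at lower levels, with a median of 2.78 FPKM in the untreated and 3.88 FPKM in the bort-treated library, against 15.3 and 15.2 FPKM for the mitotic kinesins. They held 5 of the 12 members past 2-fold, 3 higher (17.6%, against 8.08% of all genes) and 2 lower (11.8%, against 10.2%). KIF24, which acts at centrioles to hold back cilia, was at 1.12 and 4.41 FPKM, a log2 difference of 1.35. KIF21A, a motor that restrains microtubule growth, was at 6.79 and 18.1 FPKM, a log2 difference of 1.30 that was 0.87 with the GC trend removed. The related KIF21B was at 1.48 and 2.79 FPKM.

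KIF1B and KIF1C, closely related motors that carry vesicles, differed in opposite directions. KIF1B was at 1.61 FPKM in the untreated and 5.53 FPKM in the bort-treated library, a log2 difference of 1.32. KIF1C was at 24.4 and 8.70 FPKM, a log2 difference of -1.39. Both kept their direction and stayed past 2-fold without the GC trend, at 1.197 and -1.11. KIF1C was thus 15.2 times as abundant as KIF1B in the untreated library and 1.57 times in the bort-treated one. KIF1BP, whose protein binds several kinesins and keeps them off microtubules, was at 3.53 and 6.25 FPKM.

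All 3 kinesins of the minus-end directed KIFC group were lower, including KIFC1 described above. KIFC2 was at 19.5 FPKM in the untreated and 8.50 FPKM in the bort-treated library, a log2 difference of -1.11 that was -0.27 without the GC trend, its transcripts having the highest GC content of the members, 68.0%. KIFC3 was at 6.88 and 3.69 FPKM. The kinesin-2 motors of cilia were all higher by less than 2-fold (KIF3A not with the GC trend removed, at -0.023), KIF3A at 1.92 and 3.09 FPKM, KIF3B at 6.74 and 7.94 FPKM and KIF3C at 1.56 and 2.58 FPKM. KIF5B, the conventional kinesin heavy chain, was the most abundant of the group and near level at 34.3 and 38.0 FPKM. KIF7, a regulator of Hedgehog signalling in cilia, was at 2.70 and 1.47 FPKM. The other 5, KIF5A, KIF9, KIF13A, KIF13B and KIF16B, had log2 differences between -0.42 and 0.51.

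Lists of genes of the same pathway outside the rule had medians on both sides of that of the members. For comparison, 50.3% of all genes were higher, 8.08% were higher by 2-fold and 10.2% were lower by 2-fold. The 27 other kinetochore and checkpoint genes had a median log2 difference of 0.24, with 17 higher, 2 by 2-fold, and 10 lower, 2 by 2-fold. Among them KNL1, the scaffold to which BUB1 binds, was at 2.44 FPKM in the untreated and 6.94 FPKM in the bort-treated library, and MAD1L1, the partner of MAD2, was at 7.57 and 2.28 FPKM. Of 14 cytokinesis genes 12 were higher (median 0.30). CEP55, an organiser of abscission, was at 9.76 and 21.0 FPKM, and VPS4A, of the abscission machinery, was at 34.0 and 21.2 FPKM.

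Kinases and phosphatases of mitotic entry had the highest median of these pathway lists, 0.41, with 16 of 21 higher, 7 of them by 2-fold, and 1 lower by 2-fold. Of these 7, 1 was CEP55, which is neither a kinase nor a phosphatase and is also counted in the cytokinesis list. As shares of the list, 76.2% were higher, 33.3% by 2-fold, against 50.3% and 8.08% of all genes. By 2-fold 4.76% were lower, against 10.2% of all genes. MELK, a kinase abundant in dividing cells, was at 13.2 FPKM in the untreated and 36.3 FPKM in the bort-treated library. PKMYT1, which holds CDK1 inactive, was at 23.6 and 10.003 FPKM, a log2 difference of -1.16 that was -0.41 with the GC trend removed. WEE1, a kinase of the list with the same action, was higher, at 4.43 and 11.8 FPKM (named after its values were seen). Its log2 difference was 1.24, and 0.88 with the GC trend removed. With the GC trend removed the median of this list was 0.28, and 1 gene stayed higher by 2-fold.

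Subunits and activators of the anaphase promoting complex had a median of -0.11, with 2 of 19 higher by 2-fold and none lower by 2-fold, and of 0.0099 with the GC trend removed. FBXO5 (EMI1), an inhibitor of the complex, was at 8.25 FPKM in the untreated and 18.2 FPKM in the bort-treated library, and the subunit ANAPC13 was at 11.7 and 5.78 FPKM. The 16 genes of cohesin and separase had a median of 0.14, among them separase (ESPL1) at 14.5 and 7.71 FPKM and RAD21, a cohesin subunit, at 25.2 and 39.96 FPKM, and 1 gene was higher by 2-fold (ESCO2, named after its values were seen). With the GC trend removed the median of the list turned to -0.18, with 5 of 16 higher. The 8 condensin subunits had a median of -0.36, and as in the NDC80 complex the subunits stood apart, SMC4 at 18.7 and 40.6 FPKM and NCAPH at 34.5 and 16.2 FPKM.

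The 26 genes of the spindle pole and augmin had a median of -0.14. NUDC, a dynein cofactor, was at 298.3 FPKM in the untreated and 112.7 FPKM in the bort-treated library, and HAUS2, an augmin subunit, at 4.30 and 12.4 FPKM. Of the 26 regulators of transcription in G2 and mitosis 15 were higher (median 0.11), 5 by 2-fold. With the GC trend removed the median turned to -0.035, with 12 higher, 3 by 2-fold, and LIN54 (0.85) and RBL2 (0.70) were short of 2-fold. FOXM1, an activator of these genes, was near level at 5.62 and 5.29 FPKM, with a log2 difference of -0.073 that was 0.16 without the trend, while MYBL2, which acts at the CHR with the MuvB complex, was at 131.5 and 81.2 FPKM. LIN54, the MuvB subunit that binds the CHR, was at 1.46 and 4.97 FPKM, and E2F4, a repressor in the DREAM complex, was at 36.4 and 21.9 FPKM. The DREAM pocket proteins were unlike each other, RBL2 at 3.37 and 8.08 FPKM and RBL1 at 4.15 and 4.36 FPKM. CDKN1A, an inhibitor of cyclin-dependent kinases, stood highest in the list at 0.680 and 19.8 FPKM, a log2 difference of 3.63. TFDP1, a partner of E2F proteins, stood lowest, at 37.7 and 17.2 FPKM.

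Replication genes were mostly lower in the bort-treated library, whereas the spindle genes lay near the genes of the table as a whole. The 40 genes for replication licensing and the replication fork had a median log2 difference of -0.61, with 30 lower, 10 of them by 2-fold. Of the spindle and kinetochore genes 26 of 72 were lower, 5 by 2-fold, and of all genes 5461 of 10987 were lower. Of the replication genes 25% were lower by 2-fold, against 10.2% of all genes. Another 2 (5%) were higher by 2-fold, against 8.08% of all genes. FEN1, a nuclease of the lagging strand, was at 151.1 FPKM in the untreated and 54.0 FPKM in the bort-treated library, and ORC3, a subunit of the origin recognition complex, was at 16.5 and 55.5 FPKM. The 2 lists had much the same GC content (medians of 46.6% and 46.0%). With the GC trend removed the replication genes were at -0.55 and the members at 0.032 (all genes, 0.013). With 1 library per condition the distance between the lists was not tested.

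**Figure D5:**
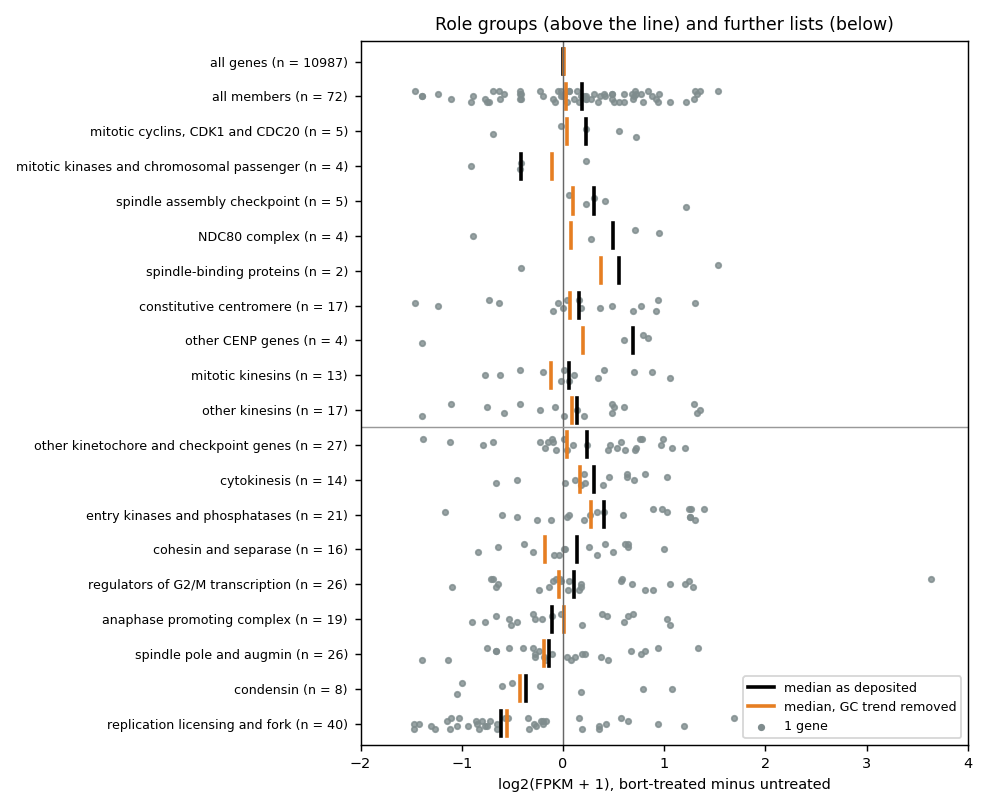
Log2 difference (x axis) of each gene (grey points) with the median as deposited (black) and with the GC trend removed (orange), for all genes (medians only), the members, their roles and the further lists. Most medians lie within 0.6 of 0, and that of the replication genes is the lowest at -0.61.

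Exons of 3 members (CENPS, BUB1B and NUSAP1) shared bases with a second coding gene read in the same direction (GENCODE 29), and those of 13 members overlapped one on the opposite strand. The methods describe a stranded library kit and the sample labels name a different kit, so whether reads of the opposite strand were kept apart could not be settled for these 13, among them CCNA2, PLK1, KIF18A, KIF24, CENPU and KIFC2.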

How the data were processed

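RNA was sequenced from 1 bort-treated (24 h) and 1 untreated THP1 culture. The authors trimmed reads, mapped them with HISAT2 and reconstructed transcripts with StringTie and deposited gene-level FPKM. The submitters' processing notes name GRCh37, and the annotation was not given in the sources used here. Each gene reached at least 0.501 FPKM in 1 library. Depth is unknown, so no interval was computed.

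Differences were computed as log2(FPKM + 1) over the whole table, with no test because each condition has 1 library. A call was a difference of 2-fold or more. The members, the gene lists and the motifs were chosen with earlier results of these data known. Any member could be named. Of each further list the genes with the largest positive and negative difference at 5 FPKM or more in the higher library were named, with chosen regulators, of which 1 is not reported here. The complexes and families of members, and the promoters shown, were chosen after the values were seen. No list was tested for enrichment.

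GC content came from all GENCODE 29 transcripts of a gene, matched by identifier for 10907 genes, and a lowess curve (span 0.3) was subtracted to remove its trend, keeping the median. GENCODE 29 is of another build, so no gene coordinates are given. Promoter windows were matched to RefSeq by symbol or identifier, and a stretch was printed whole only where at most 30 of its bases lay in a transcript of the gene. The lowess step was tested on simulated data. Python 3.11.15, numpy 2.4.6, pandas 2.3.3, statsmodels 0.14.6 and matplotlib 3.10.9 were used. Other pseudocounts, scalings, thresholds, a filter and the GC correction were tried as alternatives.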

Additional observations from a re-analysis of the deposited data

How the results depend on the processing

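The median log2 difference of the 72 members stayed above 0 under all 8 other settings. It was 0.29 with upper quartile scaling, 0.30 when the 20 genes of highest FPKM were left out of the scaling totals and 0.032 with the GC trend removed, and within 0.1 of the reported value under the other 5. These scalings moved the median of all genes by 0.089 and 0.092. The number of members higher by 2-fold was 7, against 11 with no pseudocount, 4 with the GC trend removed, 21 at a threshold of 1.5-fold and 0 at 4-fold. The number lower by 2-fold was 5, against 2 with the GC trend removed, 13 at 1.5-fold and 0 at 4-fold. Of all genes past 2-fold 54.2% were higher when scaled without the 20 most abundant genes. NUF2, CENPK and CENPI passed 2-fold under both of these scalings. Of the 12 members past 2-fold 5 stayed past it under all 8 settings and 0 changed sign, and of all 72 members 18 changed sign under some setting, 15 of them with the GC trend removed and 6 under a scaling (CENPT, CENPL, CENPO, CCNA2, KIF5A and KIF18B, all near level). The filter of 1 FPKM removed no member. The cause of these shifts was not tested. No paired analysis was possible because there was a single library of each kind, which also meant that none could be left out. Because depth is unknown, the counting error of genes with low FPKM such as KIF24 and CENPP cannot be stated.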
